A study of Mus musculus with 6 samples.

Results

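Transcripts of 10 genes of the bone morphogenetic protein (BMP) pathway were followed in the tibialis anterior (TA) muscle of aged mice: the ligand Gdf5, the receptors Bmpr1a and Bmpr2, the signal transducers Smad1, Smad5 and Smad4, the inhibitory Smad6, and the target genes Id1, Id2 and Id3. The 10 genes were picked by symbol, were found among the 45777 genes of the count table and the 16800 genes of the TPM tables, and all passed the filter that left 16188 genes for testing, Gdf5 through its vehicle libraries. They were chosen with the difference between the groups already known, so their own differences are described here with a standard error, and where members are counted past a threshold the count is a description too, not support for a difference.

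RNA was sequenced from 3 vehicle mice and 3 mice treated with BML-260, a small molecule used to target the phosphatase DUSP22, and the comparison asks how the compound alters transcripts in muscle at an age when it wastes. All 6 animals were male C57BL/6J mice aged 24 months, although the study's text also gives a wider and an older age. BML-260 was injected at 5 mg/kg each day for about a month, and the vehicle held DMSO and tween 80. No young and no untreated mice are among the libraries, so both groups carry age, injection and vehicle alike, and no gene was deleted. The libraries held between 39522890 and 56998875 counts. The 10 skeletal muscle fiber markers summed to between 103360 and 138734 TPM (a level scaled for transcript length and for the library), so the labelled tissue carried its defining transcripts. Vehicle replicate 3 stood apart: its log2 counts correlated at between 0.940 and 0.948 with the other libraries across genes, which are not independent replicates, whereas the other 5 libraries correlated at between 0.972 and 0.985 with each other. For many results the value without it is given as well.

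BMP ligands and the related growth and differentiation factors (GDFs) are secreted dimers that bring together type I receptors, such as BMPR1A, and type II receptors, such as BMPR2. The type I receptor phosphorylates SMAD1 and SMAD5, which bind SMAD4, enter the nucleus and switch on targets such as the Id genes, whose proteins bind basic helix-loop-helix (bHLH) factors and keep them off DNA. SMAD6 is induced by the same signal and blocks it. GDF5 is best known from the forming joint and the tendon, and in muscle it is a ligand that rises after denervation, when BMP signaling limits the loss of fiber mass.

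Sequence upstream of the transcription start was available in the RefSeq promoter table (GRCm38.p6) for 7 of the 10 genes, and was not available there for Gdf5, Id1 and Smad4. The 250 bases before the start of Id2 and of Id3 are shown because both genes are Id targets read out below. Whether these letters bear on the levels of the 2 genes was not tested. Id2 lies on the minus strand and Id3 on the plus strand. Capitals mark the letters GGCGCC, a GC-rich element that BMP Smads can bind, or CAGAC, the core of the general Smad-binding element, on either strand. The windows are chr12:25096093-25096342 for Id2 and chr4:136143572-136143821 for Id3.
Id2: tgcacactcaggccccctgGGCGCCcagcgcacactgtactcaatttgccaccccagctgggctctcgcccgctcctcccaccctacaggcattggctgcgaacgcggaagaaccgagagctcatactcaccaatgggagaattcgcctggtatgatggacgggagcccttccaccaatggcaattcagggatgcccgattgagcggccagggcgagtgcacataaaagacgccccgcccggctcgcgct
Id3: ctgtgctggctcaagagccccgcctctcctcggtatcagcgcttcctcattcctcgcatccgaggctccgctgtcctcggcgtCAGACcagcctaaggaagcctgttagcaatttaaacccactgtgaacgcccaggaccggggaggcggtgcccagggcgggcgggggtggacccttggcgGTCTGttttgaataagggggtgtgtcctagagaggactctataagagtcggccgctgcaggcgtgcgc
The Id2 window held GGCGCC once and no CAGAC, and the Id3 window held CAGAC on 2 occasions, once on each strand, and no GGCGCC. Among 32851 promoter windows of the same length, 9.59% held GGCGCC and 42.2% held CAGAC on at least one strand. A match describes the letters of the window and not a bound site.

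Transcript levels of the 10 genes can be compared with each other in TPM. Bmpr1a was the most abundant with a mean of 41.3 ± 6.34 TPM (SD over the 6 libraries), followed by Bmpr2 (27.3 ± 4.73), Id3 (23.0 ± 6.07), Smad4 (16.0 ± 2.71), Id1 (14.3 ± 5.44), Smad5 (13.7 ± 2.86), Smad1 (6.01 ± 2.55), Id2 (5.14 ± 3.36), Smad6 (2.71 ± 0.711) and Gdf5 (1.47 ± 1.72). Only the ranges of Bmpr1a against Bmpr2 and of Smad5 against Smad1 did not overlap among neighbours in this order, so the order of the other neighbours is not separated from the spread between libraries. The order pools both groups. In vehicle muscle alone the mean of Gdf5 (2.72 TPM) was above that of Smad6. Likewise Id2 (7.76 TPM) was above Smad1 (7.03 TPM), and Id1 (17.4 TPM) above Smad4 (16.2 TPM). With BML-260 the mean of Smad5 (13.3 TPM) was above that of Id1 (11.1 TPM). Smad6 (3.11 TPM) was also above Id2 (2.52 TPM) in that group.

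Between the groups, Gdf5 and Id2 were lower in all 3 BML-260 libraries than in any vehicle library, Id1 and Id3 had lower means with overlapping groups, Smad6 had a higher mean with overlapping groups, and the receptors and the other Smads differed by less than 1.3-fold. Of the 10 genes, 5 had a lower and 5 a higher level with BML-260, and the median log2 fold change was -0.12, beside -0.0039 over all 16188 genes. Without vehicle replicate 3 the median of the 10 genes was -0.00046, so its distance from the median of all genes rested on that library. Gdf5 and Id2 were the 2 members beyond a fold change of 1.3 at an unadjusted p under 0.05 in edgeR's quasi-likelihood test, both lower. Over all tested genes 5.75% were called by that rule, 4.86% lower and 0.896% higher. Because this contrast chose the genes, nothing is read from the share of members. At an adjusted p under 0.05 (Benjamini-Hochberg over all genes) the same edgeR test called 0.00% of all genes, with 966 (5.97%) at an unadjusted p under 0.05, whereas DESeq2 called 95 and limma voom 1. Without vehicle replicate 3 the count of members remained at 2, and 657 of 16502 genes (3.98%) were called. It was 4 without vehicle replicate 1 and 4 without BML-260 replicate 3.

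**Figure D1:**
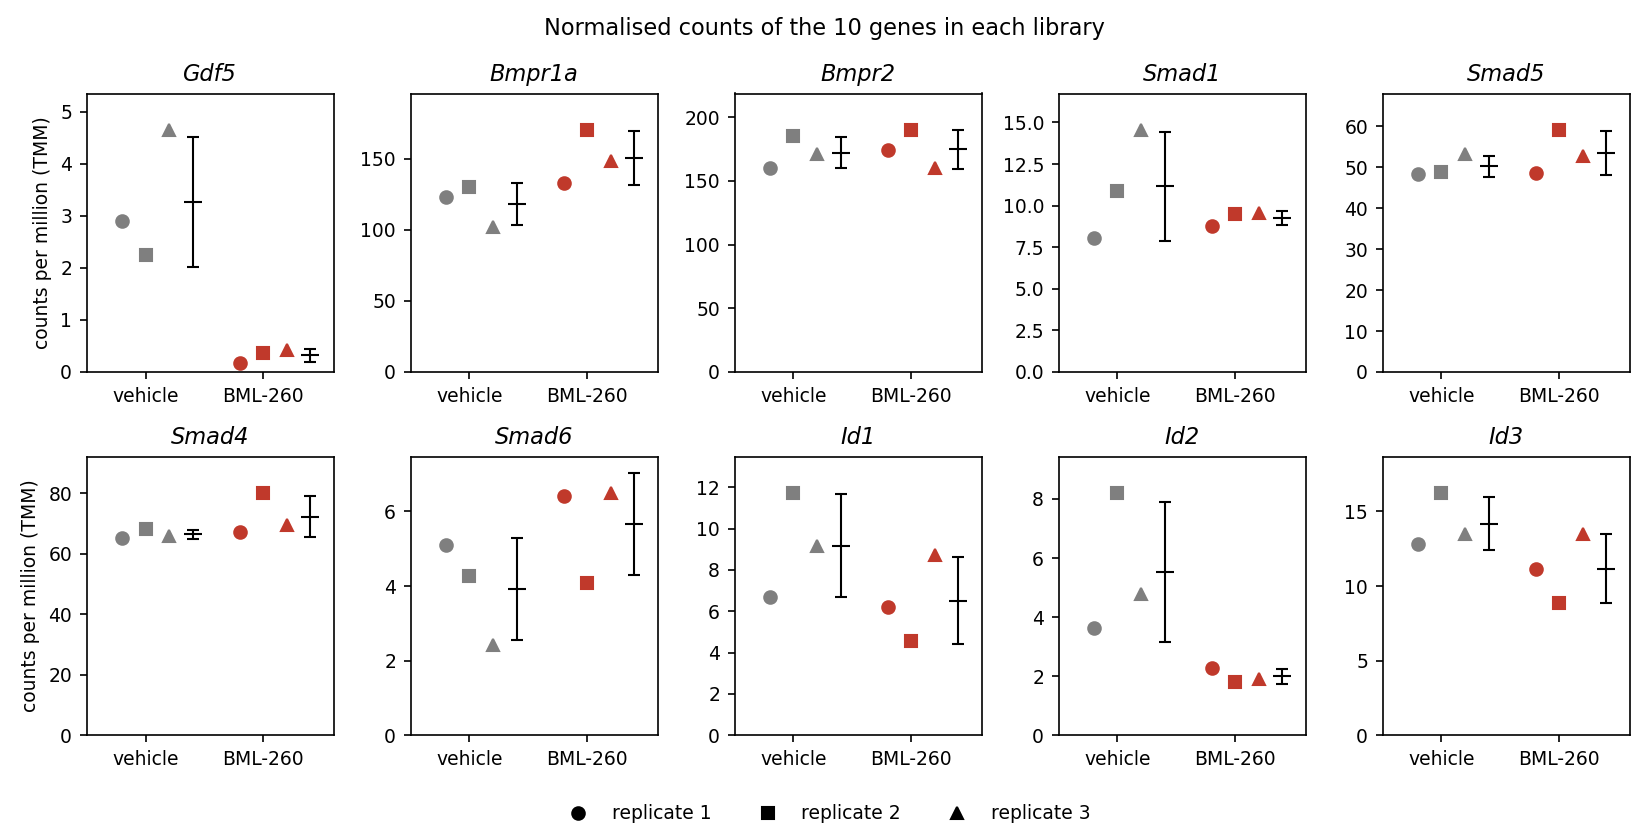
Normalised counts (CPM with TMM scaling, vertical axes from 0) of the 10 genes in 3 vehicle libraries (grey) and 3 BML-260 libraries (red), with symbols for the replicate numbers and black bars for the mean and SD of each group. Gdf5 and Id2 are lower in every BML-260 library than in every vehicle library, Bmpr1a is higher in every one, and the other 7 genes overlap.

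The ligand Gdf5 (chr2:155941023-155945367, GRCm38.p6, minus strand) was counted 141, 82 and 292 times in vehicle replicates 1, 2 and 3, and 9, 17 and 16 times in BML-260 replicates 1, 2 and 3. As CPM, that is, counts scaled to the size of the library with TMM factors, these are 2.89, 2.26 and 4.66 with vehicle and 0.167, 0.363 and 0.422 with BML-260. The groups were far apart, and the lowest vehicle library was several times above the highest BML-260 library. The log2 fold change was -3.39 ± 0.44 (SE, n = 3 and 3), a level 10.4-fold lower with BML-260. In TPM the values were 2.05, 1.51 and 4.60 with vehicle and 0.105, 0.254 and 0.295 with BML-260. Vehicle replicate 3 was the highest library, and without it the log2 fold change was -3.04. When any one library was left out, the value stayed between -3.63 and -3.04. The BML-260 values rest on fewer than 20 counts a library, so their order among themselves is not informative. A second gene model, Gm15557, lies over Gdf5 on the other strand in GENCODE, and whether the counting used the strand is not stated in the sources used here.

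Set against other BMP and GDF ligands chosen for a list, Gdf5 made up a sizeable part of their summed TPM with vehicle and little of it with BML-260. Of the summed TPM of Gdf5 and the 8 other BMP and GDF ligands listed in the TPM tables, Gdf5 contributed 9.09%, 9.03% and 20.3% in vehicle replicates 1, 2 and 3. The share was 0.630%, 1.59% and 2.04% in the BML-260 libraries, below every vehicle library. Without Gdf5 the other 8 ligands summed to 20.5, 15.2 and 18.1 TPM with vehicle and to 16.6, 15.7 and 14.2 TPM with BML-260, and these groups overlapped. The largest contribution came from Bmp5 in each library. The sum leaves out Gdf6, which has no TPM. Gdf6 was counted 13, 91 and 62 times with vehicle and 13, 10 and 4 times with BML-260. The list does not hold every GDF gene either, so the share describes these ligands and not the whole family.

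**Figure D2:**
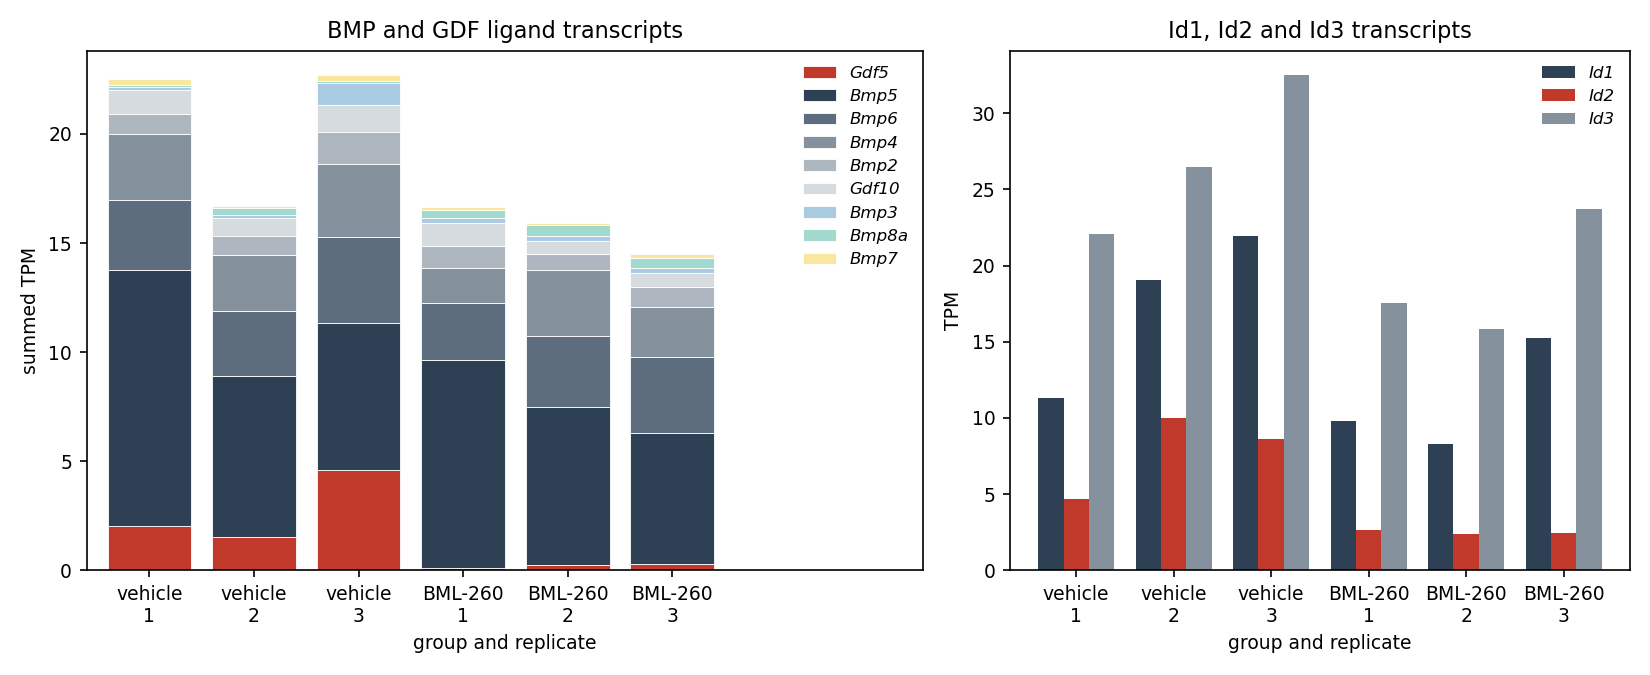
Left, summed TPM of Gdf5 (red) and 8 other BMP and GDF ligands in each library. Right, TPM of Id1, Id2 (red) and Id3 in each library. Gdf5 is a visible part of the vehicle bars (9.03% to 20.3%) and at most 2.04% of the BML-260 bars, and Id2 is below Id1 and Id3 in all 6 libraries.

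Among the receptors, Bmpr1a (chr14:34411061-34503336, minus strand), the type I receptor gene, was at 123, 130 and 102 CPM in vehicle replicates 1, 2 and 3 and at 133, 170 and 148 CPM with BML-260. The 3 BML-260 libraries lay above the vehicle libraries, the closest pair being vehicle replicate 2 and BML-260 replicate 1. The log2 fold change was 0.35 ± 0.17 (SE), or 1.27-fold higher, and the groups overlapped when the same libraries were expressed in TPM (36.4, 36.4 and 42.2 against 36.0, 52.0 and 44.6). Bmpr2 (chr1:59764279-59878081, plus strand), the type II receptor gene, was between 160 and 185 CPM with vehicle and between 160 and 190 CPM with BML-260. Its log2 fold change of 0.021 ± 0.15 was smaller than its error, and its sign changed among the alternative analyses. Over all genes, 6.91% did not overlap between the groups in the direction lower with BML-260 and 5.23% did not overlap in the direction higher; the members were 2 (Gdf5 and Id2) and 1 (Bmpr1a).

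Smad1 (chr8:79338395-79399428, minus strand) was at 8.03, 10.9 and 14.6 CPM with vehicle and at 8.79, 9.47 and 9.55 CPM with BML-260. Its log2 fold change of -0.27 ± 0.22 rested on vehicle replicate 3, the highest library, and was -0.021 without it and -0.46 without vehicle replicate 1. Smad5 (chr13:56703010-56742378, plus strand) spanned 48.4 to 53.2 CPM with vehicle and 48.5 to 59.1 CPM with BML-260, with a log2 fold change of 0.092 ± 0.14. Smad4 (chr18:73634790-73703791, minus strand), the partner shared with the TGF-β and activin branch, spanned 65.2 to 68.2 CPM and 67.1 to 80.1 CPM, with a log2 fold change of 0.12 ± 0.13. Both differences were within their errors, and both became negative when the TPM were analysed, a scaling under which the median of all genes was -0.098 or -0.14. Smad1 made up 26.6%, 32.7% and 37.3% of the summed TPM of Smad1 and Smad5 with vehicle and 28.1%, 25.8% and 28.3% with BML-260, with overlap.

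Smad6 (chr9:63953076-64022085, minus strand), the inhibitory Smad, had the opposite sign from the other BMP targets of the set. It was at 5.09, 4.26 and 2.41 CPM in vehicle replicates 1, 2 and 3 and at 6.41, 4.07 and 6.49 CPM with BML-260. The groups overlapped, since BML-260 replicate 2 lay below 2 vehicle libraries, and vehicle replicate 3 was the lowest. The log2 fold change was 0.53 ± 0.31, and 0.27 without vehicle replicate 3.

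The Id genes had lower means with BML-260, by very different amounts. Id2 (chr12:25093799-25096092, minus strand) was counted 177, 298 and 299 times with vehicle and 123, 85 and 72 times with BML-260, or 3.63, 8.20 and 4.77 CPM against 2.28, 1.81 and 1.90 CPM. The BML-260 libraries lay close together and below all vehicle libraries, of which replicate 2 was the highest. The log2 fold change was -1.46 ± 0.32, 2.76-fold lower, and ranged from -1.69 to -1.07 when one library was left out. Without vehicle replicate 3 it was -1.55.

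Id1 (chr2:152736251-152737410, plus strand) was at 6.69, 11.7 and 9.14 CPM with vehicle and at 6.23, 4.57 and 8.74 CPM with BML-260. Id3 (chr4:136143822-136145392, plus strand) was at 12.9, 16.2 and 13.5 CPM with vehicle and at 11.2, 8.87 and 13.5 CPM with BML-260. For both genes BML-260 replicate 3 lay above vehicle replicate 1, so the groups overlapped. The log2 fold changes were -0.50 ± 0.28 for Id1 and -0.34 ± 0.19 for Id3. Both depended on single libraries. Id1 was at -0.76 without BML-260 replicate 3, -0.29 without BML-260 replicate 2 and -0.29 without vehicle replicate 2. Id3 was at -0.50 without BML-260 replicate 3 and -0.20 without BML-260 replicate 2.

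Because Id2 differed more than its relatives, its share of the 3 Id transcripts differed as well. Id2 was 12.3%, 18.0% and 13.6% of the summed TPM of Id1, Id2 and Id3 in vehicle replicates 1, 2 and 3. With BML-260 it was 8.89%, 9.09% and 5.98%, below every vehicle library. The TPM ratio of Id3 to Id1 overlapped, at 1.96, 1.39 and 1.48 against 1.79, 1.92 and 1.56.

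**Figure D3:**
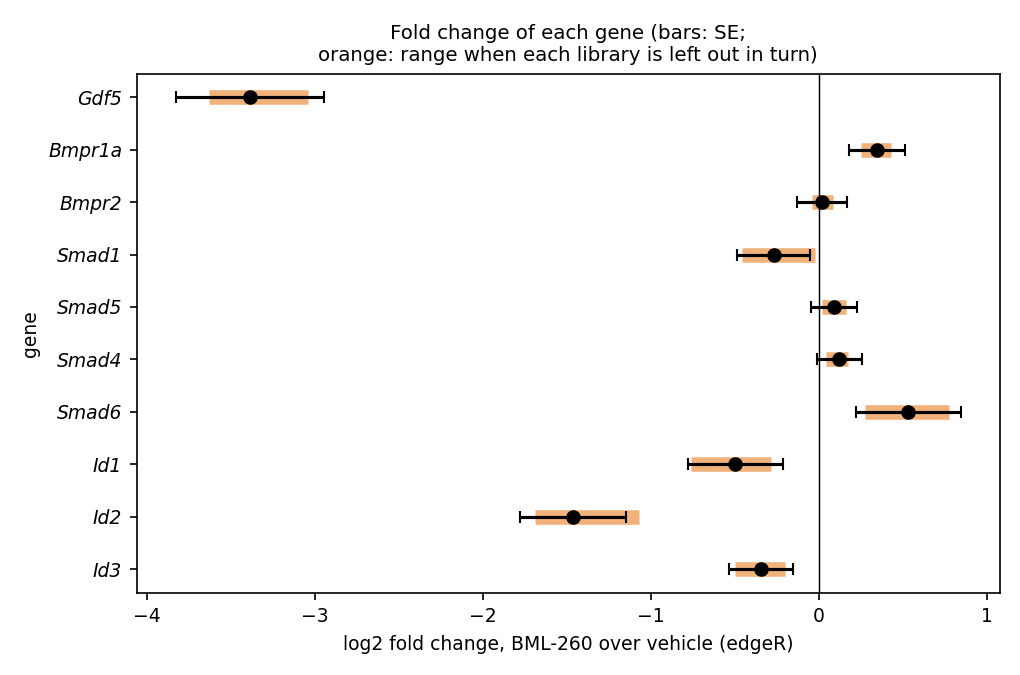
Log2 fold change of BML-260 over vehicle for each of the 10 genes (points, with SE as black bars) and the range of the value when each of the 6 libraries is left out in turn (orange). Gdf5 (-3.39) and Id2 (-1.46) lie apart from the other 8 genes, which lie between -0.50 and 0.53.

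The members also differed in how they varied among mice of the same group. Id1 and Id3 varied together from library to library: their log2 CPM correlated at r = 0.97 over the 6 libraries, and the deviations from the group means at r = 0.96. Id2 followed Id1 less closely (r = 0.76, deviations 0.64). For Gdf5 and Id2, both lower in every BML-260 library, r was 0.79 over the 6 libraries, while the deviations from the means of both groups correlated at -0.52, a value that also uses the BML-260 libraries with few Gdf5 counts. These are descriptions over 6 libraries that share a treatment contrast and, for each library, one scaling factor.

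**Figure D4:**
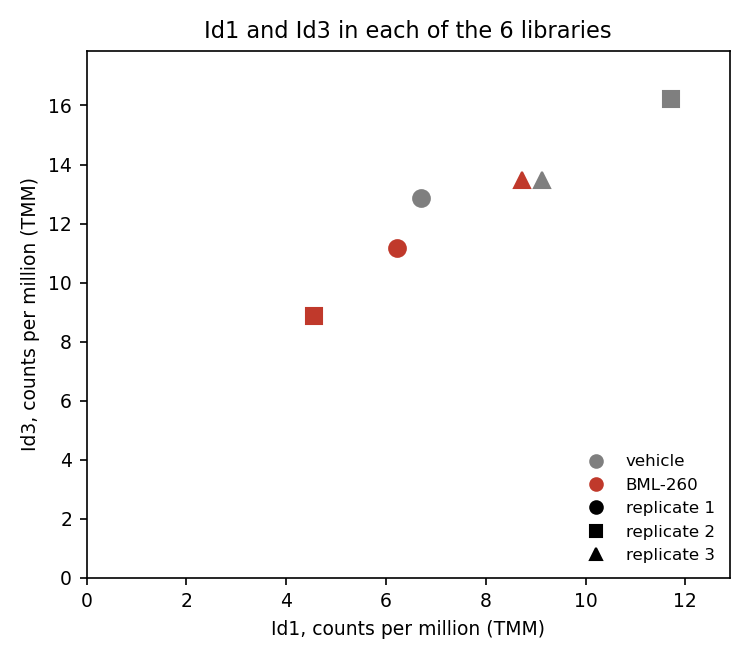
Id3 against Id1 in normalised counts (CPM), 1 point for each of the 6 libraries, grey for vehicle and red for BML-260, both axes from 0. The points lie along a line, with BML-260 replicate 2 lowest and vehicle replicate 2 highest for both genes.

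Other genes were ranked by the correlation of their log2 CPM with that of a member over the 6 libraries. For Gdf5 the 5 most alike were Klhl2 (r = 0.990), Gbp3 (0.988), Skp2 (0.984), Cacng1 (0.977) and Plvap (0.973). For Id2 they were Slc25a10 (0.993), Hip1r (0.993), Slc25a17 (0.985), Zfp703 (0.982) and Cd300ld5 (0.982). For Id1 the genes were Snord104 (0.990), Chp2 (0.987), Fam102a (0.983), Ets2 (0.983) and Enpp6 (0.976), and for Id3 they were Fam102a (0.979), Jak3 (0.978), Dusp4 (0.974), Cdk5r1 (0.972) and Sept9 (0.971). Fam102a was thus named for both Id1 and Id3. The deviations from the group means correlated at between 0.70 and 0.93 for the genes like Gdf5. Over so few libraries the names are unstable: without vehicle replicate 3 only 1 of the 5 was named again for each member, Klhl2 for Gdf5, Slc25a10 for Id2, Snord104 for Id1 and Dusp4 for Id3.

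The rest of the pathway was read from 7 lists of genes with textbook roles. No gene of these lists had an adjusted p under 0.553 in edgeR's quasi-likelihood test. The counts that follow use the fold change of 1.3 and unadjusted p under 0.05, against 4.86% lower and 0.896% higher over all genes.

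Of 14 other BMP and GDF ligands 9 were tested, 1 was called lower and 1 higher, and the median log2 fold change was -0.16. Gdf6, a close relative of Gdf5, was counted 13, 91 and 62 times with vehicle and 13, 10 and 4 times with BML-260, with a log2 fold change of -2.69 ± 0.79 (SE, adjusted p = 0.699 by edgeR). Vehicle replicate 2 was its highest library, and the value was -1.73 without it. The higher gene was Bmp8a, counted 9, 17 and 9 times with vehicle and 34, 33 and 24 times with BML-260. It passed the filter through its BML-260 libraries, so its call is a description. In TPM it was at 0.182 ± 0.104 with vehicle and 0.437 ± 0.056 with BML-260 (SD, n = 3). Its log2 fold change was 1.34 ± 0.53, and between 1.04 (without vehicle replicate 3) and 1.99 with 1 library left out. The abundant ligands Bmp5 (-0.063 ± 0.33), Bmp6 (0.043 ± 0.17) and Bmp4 (-0.24 ± 0.25) had log2 fold changes within their errors. With 1 library left out Bmp5 lay between -0.33 and 0.31, Bmp6 between -0.019 and 0.10, and Bmp4 between -0.45 and -0.075. With 1 library left out the list held 1 to 2 called genes: 1 without vehicle replicate 1 or 3 or any of the BML-260 replicates. In those fits no ligand was called higher, so the call of Bmp8a was lost. The median of the list was between -0.24 without vehicle replicate 2 and 0.0071 without BML-260 replicate 2.

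None of the 10 other receptors and co-receptors was called by edgeR, although 3 were when vehicle replicate 1 was left out and 1 when vehicle replicate 2 was. Their median log2 fold change was 0.28, but 0.092 without vehicle replicate 3. Hjv, the hemojuvelin co-receptor that muscle makes in quantity, was at 245, 162 and 146 TPM with vehicle and at 246, 245 and 228 TPM with BML-260, a log2 fold change of 0.49 ± 0.29. Vehicle replicate 1 lay with the BML-260 libraries for this gene, and the value was 0.82 without it and 0.23 without vehicle replicate 3. The log2 fold changes of Acvr2a (0.020 ± 0.16) and Rgmb (0.29 ± 0.21, or 0.090 without vehicle replicate 3) were small.

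Of 18 Smad regulators and partners 1 was called, Runx2, a transcription factor that binds Smads, at -0.96 ± 0.39 on the log2 scale and under 1 TPM in every library. It was highest in vehicle replicate 3, without which the value was -0.61. The list held 2 called genes without vehicle replicate 1, and 0 without BML-260 replicate 2 or 3. Its median was 0.052, and between 0.012 and 0.086 with a library left out (0.028 without vehicle replicate 3). Tob1 (0.13 ± 0.17), which restrains BMP Smads, Ppm1a (0.23 ± 0.15), a phosphatase, and Stub1 (0.16 ± 0.16), a ubiquitin ligase, were the most abundant and were not called. Without vehicle replicate 3 they were at 0.0038, 0.22 and 0.030.

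Of the 16 tested antagonists and modulators outside the cell 2 were called lower, and the median was -0.31, but -0.048 without vehicle replicate 3. Fst, which encodes follistatin, a protein that binds activins and BMPs, was at 1.43, 5.08 and 7.70 TPM with vehicle and at 1.31, 1.42 and 0.866 TPM with BML-260, a log2 fold change of -1.74 ± 0.47. Vehicle replicate 1 lay just above the BML-260 libraries for Fst in TPM and overlapped them in CPM. Htra3, a secreted protease, was the other (-0.52 ± 0.20, or -0.29 without vehicle replicate 3). The abundant Fstl1 (-0.49 ± 0.25), Twsg1 (0.022 ± 0.13) and Htra1 (0.27 ± 0.45) were not called, and without vehicle replicate 3 they were at -0.11, -0.014 and -0.083. With 1 library left out Htra1 lay between -0.083 and 1.07. The list held 4 called genes without vehicle replicate 1 or 2, and 1 without vehicle replicate 3 or BML-260 replicate 2 or 3.

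Among targets of BMP signaling outside the set, 12 were tested and 3 were called lower, with a median of -0.41. Atoh8, a bHLH gene induced by BMPs, was at 4.25, 4.03 and 11.9 TPM with vehicle and at 2.07, 1.90 and 2.59 TPM with BML-260, a log2 fold change of -1.38 ± 0.31 that was -0.94 without vehicle replicate 3. Cdkn1a, the cell cycle inhibitor p21, which many other signals also induce, had a log2 fold change of -2.50 ± 0.57, or -2.10 without vehicle replicate 3. It was at 5.66, 22.1 and 39.0 TPM with vehicle and at 1.74, 3.47 and 4.93 TPM with BML-260, so vehicle replicate 1 lay just above the BML-260 libraries. Fbxo30 encodes a ubiquitin ligase of atrophying muscle that BMP signaling holds down, and its log2 fold change was -0.57 ± 0.16. Of the abundant targets Hes1 (-0.63 ± 0.29), Tmem100 (-0.45 ± 0.36) and Smad7 (-0.056 ± 0.19) were not called, and without vehicle replicate 3 they were at -0.28, 0.086 and 0.0043.

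Id proteins act on bHLH factors, and of 9 tested partners 3 were called lower, all of them muscle regulatory factors. Myog, the myogenin gene, was at 7.89, 10.5 and 43.8 TPM with vehicle and at 2.94, 3.89 and 6.64 TPM with BML-260, a log2 fold change of -1.91 ± 0.51 that was -1.08 without vehicle replicate 3. Myf6, the regulator of adult fibers, had a log2 fold change of -1.21 ± 0.24, or -0.90 without vehicle replicate 3, and Myod1 one of -0.47 ± 0.18. The E proteins, which pair with these factors, were not called: Tcf3 was at 0.13 ± 0.15, Tcf4 at -0.031 ± 0.14 and Tcf12 at -0.24 ± 0.15. The median of the list was -0.20, and -0.094 without vehicle replicate 3 and -0.34 without vehicle replicate 1.

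Gdf5 is induced when muscle loses its nerve, and a list of 15 genes that respond to denervation was examined beside it. Of these 9 were called lower and 0 higher in edgeR, with a median log2 fold change of -1.34 that was -0.80 without vehicle replicate 2. Without vehicle replicate 3, 11 were called lower. Among them were Runx1, a transcription factor (-2.57 ± 0.39), Gadd45a, a stress gene (-2.02 ± 0.35), Myog, Myh3, the embryonic myosin (-1.66 ± 0.43, or -1.22 without vehicle replicate 3), Chrna1 (-1.50 ± 0.31) and Chrnb1 (-0.51 ± 0.18), subunits of the acetylcholine receptor, Ncam1, an adhesion molecule (-1.34 ± 0.42, or -0.80 without vehicle replicate 2), and Musk, the receptor kinase of the synapse (-0.76 ± 0.22). Not called were Myh8 (0.17 ± 0.26), Hdac4 (-0.33 ± 0.26, or -0.58 without vehicle replicate 3) and Chrne (0.088 ± 0.21), which were the most abundant of the rest. With 1 library left out Myh8 lay between 0.020 and 0.48, Hdac4 between -0.58 and -0.099, and Chrne between -0.077 and 0.30. The list was chosen with earlier results of these libraries known and is not independent evidence of a direction.

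**Figure D5:**
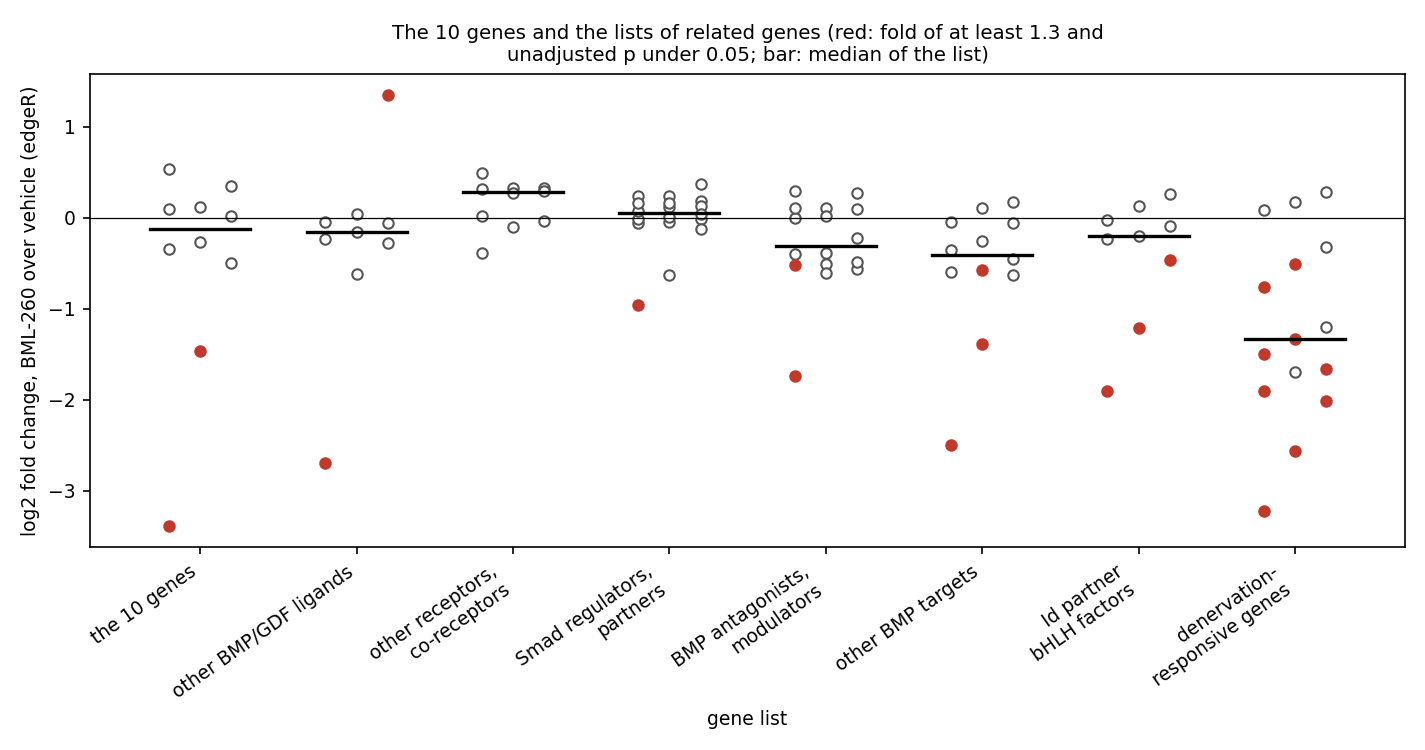
Log2 fold change of BML-260 over vehicle for the 10 genes and for the tested genes of 7 related lists, 1 point for each gene, red where the fold change is at least 1.3 with an unadjusted p under 0.05, with a bar at the median of each list. The medians lie between -0.41 and 0.28 for the 10 genes and for 6 of the lists, and at -1.34 for the denervation-responsive genes.

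Markers of other cell types in muscle were read beside Gdf5 and the Id genes, since in bulk tissue fewer cells of a type and less RNA per cell cannot be told apart. Of 9 macrophage markers 8 were called lower, and their summed level was 142 to 598 TPM with vehicle and 85.3 to 107 TPM with BML-260, without overlap. Their median log2 fold change was -1.36, and without vehicle replicate 3 it was -0.61 with 7 called lower. Without BML-260 replicate 2, 5 were called lower. Vehicle replicate 3, the highest library for Gdf5, was the highest for the macrophage list, and also for the endothelial, fibroblast, Schwann cell, satellite cell, tendon and adipocyte lists. Cd68 (0.0018 ± 0.49) was the macrophage marker that was not called. Tendon and joint markers, among which Gdf5 would be found, summed to 54.0 to 182 TPM with vehicle and 56.7 to 95.6 TPM with BML-260. Of 7 tested there, 1 was called lower, Prg4, the lubricin gene (-1.94 ± 0.71, or -0.64 and not called without vehicle replicate 3). From this list 2 were called lower and 1 higher without vehicle replicate 1, and 2 lower without vehicle replicate 2. The list held 0 called genes without BML-260 replicate 2 or 3. The joint cartilage gene Col2a1 had counts in 2 of the libraries, 33 in vehicle replicate 3 and 12 in BML-260 replicate 1.

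Endothelial cells express Id1 and Id3 strongly, and none of their 10 markers was called by edgeR, with sums of 123 to 179 TPM with vehicle and 112 to 162 TPM with BML-260. Smooth muscle markers (0 of 7 called, 322 to 381 against 304 to 386 TPM), Schwann cell markers (0 of 8 called, 22.9 to 115 against 33.7 to 36.0 TPM) and fibroblast markers (1 of 10 called lower, 377 to 976 against 414 to 644 TPM) overlapped in their sums. Satellite cell markers (2 of 5 called lower) summed to 28.0 to 69.1 TPM with vehicle and 23.0 to 25.2 TPM with BML-260. Their median log2 fold change was 0.018, with 2 lower and 3 higher, and it was -0.30 without vehicle replicate 3. Adipocyte markers (2 of 6 tested called lower) summed to 300 to 659 TPM with vehicle and 337 to 373 TPM with BML-260. Without vehicle replicate 3, 3 Schwann cell markers were called higher, 1 fibroblast marker lower and 1 higher, 1 satellite cell marker lower, and 0 endothelial, smooth muscle or adipocyte markers in edgeR. No adipocyte marker was called by edgeR when any one of the BML-260 libraries was left out, and 4 of 7 tested were called lower without vehicle replicate 1. No satellite cell marker was called without BML-260 replicate 3. Of the fibroblast markers, 2 were called lower without BML-260 replicate 1 and 0 without BML-260 replicate 2 or 3. The part of any of these cell types in the differences of Gdf5 and Id2 was not tested.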

How the data were processed

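Total RNA of the TA muscle (TRIzol, a stranded total RNA kit) was sequenced from 3 vehicle and 3 BML-260 mice. The submitters' processing notes name the mm10 build and the tools StringTie 2.1.3b, Bowtie2 2.3.4.1, HISAT2 2.1.0 and Trimmomatic 0.38; the annotation, strand setting and treatment of reads that map to several genes are not given in the sources used here, so overlapping or similar genes could share reads. The authors deposited raw counts per gene for all libraries in 1 table, and TPM per gene, scaled by the authors for transcript length and library total. The TPM tables list 16800 genes, all with a count above 0 in every library, so a gene without TPM is not necessarily silent.

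Counts were joined by gene identifier and analysed in R 4.3.3 with edgeR 4.0.16 (filterByExpr, TMM, quasi-likelihood F-test, Benjamini-Hochberg over 16188 genes). The fold and p threshold is the one printed with the study's volcano plot. The study tested with DESeq2, so the genes called here need not be those that it called. DESeq2 1.42.0 (with apeglm 1.24.0), limma 3.58.1 (voom, and the trend test after adding 1 or 0.1 to the TPM), RLE and upper quartile scaling, other filters, a replicate block and leaving out each library were alternatives. The SE is the log2 fold change divided by the root of F. CPM use TMM library sizes, and likeness used log2 CPM with a prior count of 2. The fits were tested on simulated data, but no outcome of that is given here, so it is not read as support. Figures were drawn with matplotlib 3.10.9.

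The members and all gene lists were chosen with earlier results of these data known. Named are all 10 members and, of each pathway list, every called gene and the 3 most abundant others, and the 5 genes most like Gdf5, Id1, Id2 and Id3; genes of unnamed models were passed over. One gene that this rule would name is not reported here. Marker genes were mostly summarised by list, and other list genes named were chosen after their values were seen. Each group is 3 separately labelled mice. No column of per-sample values was left without a sample. Gene coordinates are from RefSeq, GRCm38.p6.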

Additional observations from a re-analysis of the deposited data

How the results depend on the processing

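Every one of the 10 genes kept the direction of its log2 fold change in all alternatives run except Bmpr2, Smad5 and Smad4, whose values stayed between -0.13 and 0.17 and changed sign. With apeglm shrinkage, however, the 8 genes other than Gdf5 (-3.25) and Id2 (-1.27) shrank to between -0.0020 and 0.0032. Gdf5 lay between -3.63 and -1.52, the last with a pseudocount of 1 on the TPM, and had no value under the filter of at least 10 counts in every library, since BML-260 replicate 1 held 9. Id2 lay between -1.69 and -1.07. Under that filter 1 member was called, and over all genes the adjusted count was 1, as it was with no filter (1416 called at the fold and p threshold) and with voom. DESeq2 called 95 by adjusted p with and without apeglm, and 113 at the threshold with apeglm. Gdf5 and Id2 passed the adjusted p in both DESeq2 fits, and Gdf5 also in edgeR without vehicle replicate 3. These passes are a description, since the contrast chose the genes. Limma on log2(TPM + 1) called 503. With a library left out, 503 to 2223 genes were called, with 0 to 9 by adjusted p, the extremes being BML-260 replicate 2 and vehicle replicate 1, and 2 to 4 members were called.

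For the lists, leaving out a library gave 1 to 2 called ligands, 0 to 3 receptors, 0 to 2 Smad regulators and 1 to 4 antagonists, and a median of -1.70 (without vehicle replicate 1) to -0.80 (without vehicle replicate 2) for denervation genes. The filter of at least 10 counts left 0 called ligands. With apeglm the called genes were 0 ligands, 0 Smad regulators, 1 antagonist, 1 target, 1 bHLH partner and 5 denervation genes, with medians shrunken to 0.0012 (receptors), -0.00060 (antagonists), -0.00072 (targets) and -0.0023 (denervation). Voom gave 1 antagonist and a median of 0.0075 for that list. On TPM with a pseudocount of 1 there were 0 ligands, 0 Smad regulators and 1 antagonist, and a denervation median of -0.88; with 0.1 there was 1 ligand and 1 antagonist. The causes were not tested.

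Same-numbered libraries deviated from their group means with correlations of 0.16, 0.054 and 0.11 across genes, so the numbers were not taken as pairs, although each library correlated best with its own number. With a replicate block 1057 genes were called, 0 by adjusted p, and 2 members. Among the lists, the block left 1 receptor called and 0 Smad regulators. The size of the Gdf5 difference rests on under 20 counts in each BML-260 library, and no other member had fewer than 72 counts in a library.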
